A study of Homo sapiens with 9 samples.

Results

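The 77 genes described here encode proteins of the cytosolic ribosome, 46 of the large 60S subunit and 31 of the small 40S subunit. They were chosen by gene name (RPL or RPS with a number and at most a final A or X, or RPLP0, RPLP1, RPLP2 or RPSA) and by a mean raw count of 100 or more, out of 57500 genes in the count files, of which 37070 had a count in any library. No measured difference between treatments entered this choice, and no gene with such a name fell under the minimum, since the lowest mean count was 6130 (RPL17). The cells were HEK293T, an established human embryonic kidney line, incubated for 5 h with vehicle (DMSO), 10 µM HBC530 or 10 µM MsOc3HBC, in 3 biological replicates each. HBC530 is a dye that binds the Pepper RNA aptamer without a covalent bond, and MsOc3HBC is the same dye scaffold with an electrophilic mesylate handle that lets it react with a guanine of that aptamer. Poly(A)-selected RNA was sequenced to ask whether the ligands disturb endogenous transcripts, and nothing in the labels names a genotype or an introduced aptamer for these cells.

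Ribosomal protein genes are among the most highly transcribed genes of growing cells, and their products are needed in equal numbers in each ribosome, apart from the stalk proteins. Their mRNAs are mostly short and are typically terminal oligopyrimidine (TOP) transcripts, which begin with a C followed by a run of C and T. The TOP run lets mTOR signalling, through LARP1, set how strongly these mRNAs are translated, and it keeps untranslated copies stable. Several of the proteins also have roles outside the ribosome, such as RPL5 and RPL11, which bind MDM2 together with the 5S RNA when ribosome assembly fails.

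The first bases of these transcripts show what the genes share by sequence. Of the 77 genes, 62 had an entry in the RefSeq promoter table (GRCh38.p14), and 46 of the 62 (74.2%) had a C exactly at an annotated start followed by at least 4 further C or T bases, against 5.14% of the 27305 genes in that table. A gene was counted where any of its annotated starts had the run, and by starts the shares were 59.7% of 77 and 4.07% of 35116. With the run allowed to begin within 5 bases of the annotated start the shares were 85.5 and 25.2%. The sequences below are those of the genes that the comparisons turn on, read 5′ to 3′ on the strand of the gene from 10 bases before the annotated start to 20 bases from it on, with the longest pyrimidine run near the start that begins with C in capitals. RPL11 has 1 other annotated start and RPL13 has 2, none with such a run exactly at it, and the start with the run is the one printed. A run is a description of these letters and was not tested as a site.
RPL36A (chrX:101391001-101391030, plus strand): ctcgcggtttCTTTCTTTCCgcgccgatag
RPL11 (chr1:23691796-23691825, plus strand): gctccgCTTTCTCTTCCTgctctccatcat
RPS27 (chr1:153990752-153990781, plus strand): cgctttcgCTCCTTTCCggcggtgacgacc
RPS24 (chr10:78033853-78033882, plus strand): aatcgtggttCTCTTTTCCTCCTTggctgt
RPL41 (chr12:56116623-56116652, plus strand): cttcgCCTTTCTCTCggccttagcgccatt
RPL22 (chr1:6199576-6199605, minus strand): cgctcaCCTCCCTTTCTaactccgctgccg
RPL13 (chr16:89560672-89560701, plus strand): gggccgCTTCCTTTCCgctcggctgttttc
RPSA (chr3:39406710-39406739, plus strand): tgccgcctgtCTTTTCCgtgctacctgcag
RPS4X (chrX:72277229-72277258, minus strand): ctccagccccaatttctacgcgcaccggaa
RPS4X is shown because it has no run of 5 that begins with C in this window. It was also the gene with the smallest estimate for HBC530 against DMSO. RPL36A, with the largest estimate for MsOc3HBC, and RPSA, with the smallest, both have a run. The letters AAGATGGC, searched on both strands of the 300-base windows (250 bases before to 50 after the start), were present for 6 of the 62 genes (9.68%) and for 3.52% of all genes.

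All 77 genes were expressed in every library, and their levels differed widely between genes. Per kilobase of coding sequence, the DMSO mean over 3 libraries ran from 223 CPM (RPL17) to 7107 CPM (RPL41), with a median of 2194. RPL41, which encodes the shortest ribosomal protein, had 7107 ± 505 CPM per kilobase (SD, n = 3), followed by RPL8 with 6099.9 ± 113 and RPS2, a protein of the mRNA entry site, with 4834 ± 138. The gaps between these neighbours were larger than their SDs. At the low end were RPL17 (223 ± 9.28), RPL34 (707 ± 64) and RPS13 (843 ± 58.2). RPL17 shares exons with the read-through gene RPL17-C18orf32, and reads that fit both genes may have been counted for neither, so its level can be too low. The order depends on the length used, since per kilobase of the whole canonical transcript RPS2 was first (4496 ± 128) and RPL41 came in place 53. Some canonical transcripts are far longer than the coding sequence (7573 bases for RPL37, 7136 for RPL14), which puts RPL37 last on that scale with 42.9 ± 3.97.

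The depth behind these values was 28056929 to 62205366 counts per library, and replicate 3 of each ligand was its shallowest library. All 6 markers of HEK293-like cells that were looked up (PAX2, NEFL, NEFM, VIM, KRT8 and KRT18) were detected in all 9 libraries, with PAX2 at 2.00 to 3.88 CPM. The 7 markers of blood, liver, fibroblast and melanocyte cells summed to 0.200 to 0.624 CPM. HBG1 was at 0 in every library and MLANA was the highest with up to 0.510 CPM. An exon of 47 of the 77 genes overlaps another gene, and for 13 the partner had over 1% of the gene's count, up to 34% for RPL36 and LONP1. Of the genes named below, RPLP2 (with PIDD1, 3.91%), RPL10 (with DNASE1L1, 1.19%) and RPL4 (with ZWILCH, 1.42%) are among these 13. RPS13, whose low level is given above, is another (with PIK3C2A, 10.9%). How the counting treated such reads is not known. Processed pseudogenes of ribosomal proteins, which resemble the parent mRNA, held 1.35 to 1.53% as many counts as the 77 genes.

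The share of all counts on the 77 genes was highest in replicate 3 of each ligand. With DMSO they took 9.84, 9.50 and 9.71% of the counts in replicates 1 to 3 (mean 9.68 ± 0.173, SD, n = 3). With HBC530 the shares were 9.79, 9.55 and 12.7% (10.7 ± 1.76). With MsOc3HBC they were 10.3, 9.78 and 13.2% (11.1 ± 1.84). Replicates 1 and 2 of HBC530 lay within the range of the DMSO libraries, replicate 1 of MsOc3HBC lay above it, and replicate 3 of each ligand lay far above all others. The counts on 60S genes were 1.45 to 1.49 times those on 40S genes in all 9 libraries, so the levels of the subunits kept nearly the same ratio. In RNA of whole cultures, more RNA per cell and more cells with a high level cannot be told apart.

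To see whether all members took part, each gene's log2 CPM was set against its mean over the 3 DMSO libraries. The median of the 77 genes was 0.04, -0.03 and -0.01 in the DMSO libraries, 0.00, -0.04 and 0.50 with HBC530, and 0.07, -0.03 and 0.54 with MsOc3HBC. In replicate 3 of HBC530 all 77 genes were above their DMSO mean, between 0.30 and 0.74. In replicate 3 of MsOc3HBC all 77 were above it as well, between 0.32 and 1.01. Over all 18041 genes the medians in these libraries were 0.02 and 0.00, with 9280 and 9048 genes above the DMSO mean. In the other 4 ligand libraries between 16 and 65 of the 77 genes were above it, and between 13 and 57 in the DMSO libraries themselves.

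**Figure D1:**
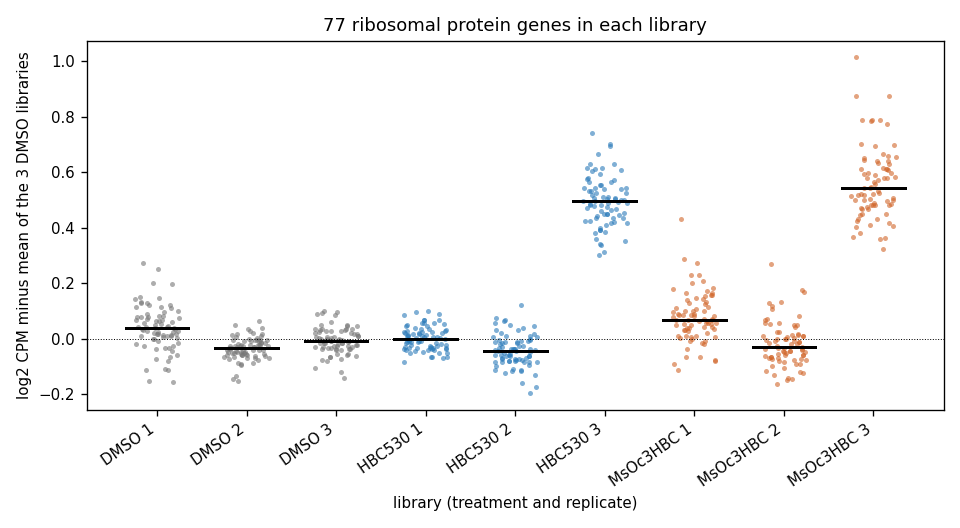
Each point is 1 of the 77 ribosomal protein genes in 1 library, as its log2 CPM minus the mean of the 3 DMSO libraries (vertical axis), with the 9 libraries along the horizontal axis and a black line at the median. The medians of replicate 3 of HBC530 (0.50) and of MsOc3HBC (0.54) stand above those of the other 7 libraries, which lie between -0.04 and 0.07.

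The length of the transcripts is a property in which these genes differ from most others, so the same values were taken in classes of canonical transcript length. The median length was 785 bases for the 77 genes (from 295 to 7573) and 2733 for all genes tested, and 44 of the 77 were under 1000 bases. In replicate 3 of HBC530, other genes under 600 bases had a median of 0.33, those of 600 to 1000 bases 0.35, those of 1000 to 2000 bases 0.23, those of 2000 to 4000 bases 0.02 and longer ones -0.26. In replicate 3 of MsOc3HBC the corresponding medians were 0.27, 0.31, 0.18, -0.00 and -0.20. The median was thus above 0 in the short classes and below 0 in the longest one in both libraries. The ribosomal protein genes were above other genes in each class, with medians from 0.47 to 0.55 for HBC530 and from 0.50 to 0.60 for MsOc3HBC. Across these classes they showed no such decline, and the 4 members of 4000 bases or more were at 0.50 and 0.58. The coding sequences of these 4 run only from 291 (RPL37) to 645 bases (RPL14). Canonical length was 2000 bases or more for 17 of the 77 genes. Whether such long canonical transcripts are those present in the cells was not tested. The classes of these genes, and the removal of a length trend that follows, depend on it. A relation with coding length is given below. A trend in canonical length was then removed from each library. The median of the 77 genes was 0.27 in replicate 3 of HBC530 and 0.37 in replicate 3 of MsOc3HBC. It was between -0.04 and 0.07 in the other 7 libraries. Depth, transcript length and these 2 libraries moved together, and the part of each in the levels was not tested.

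**Figure D2:**
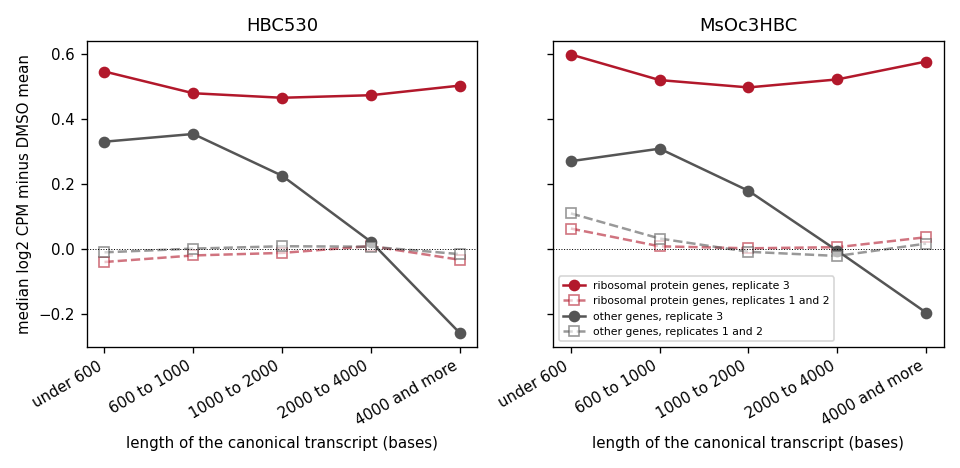
Median log2 CPM minus the DMSO mean (vertical axis) in 5 classes of canonical transcript length in bases (horizontal axis), for ribosomal protein genes in red and other genes in grey, with HBC530 in the left panel and MsOc3HBC in the right. Filled points are replicate 3 and open squares the mean of the medians of replicates 1 and 2. Other genes fall from 0.33 to -0.26 and from 0.27 to -0.20 across the classes in replicate 3, while the ribosomal protein genes stay between 0.47 and 0.60.

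Within a ligand, the gap between replicate 3 and the mean of replicates 1 and 2 differed between genes. For HBC530 it ran from 0.29 (RPL10) to 0.82 (RPL36A) on the log2 scale with a median of 0.51, and for MsOc3HBC from 0.32 (RPL17) to 0.68 (RPS27) with a median of 0.53. RPL10, a late-joining 60S protein, was 1805, 1746 and 2171 CPM in replicates 1 to 3 of HBC530. RPL36A was 266, 263 and 466. The genes with a large gap in one ligand tended to have one in the other, with Pearson's r = 0.49 and Spearman's rho = 0.47 over the 77 genes, which are not independent. The libraries of the ligands are not shared here, though replicates 3 share their number, low depth and the trend with length. Coding length correlated with the gap at r = -0.55 for HBC530 and -0.47 for MsOc3HBC, given as descriptions over the same 77 genes.

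**Figure D3:**
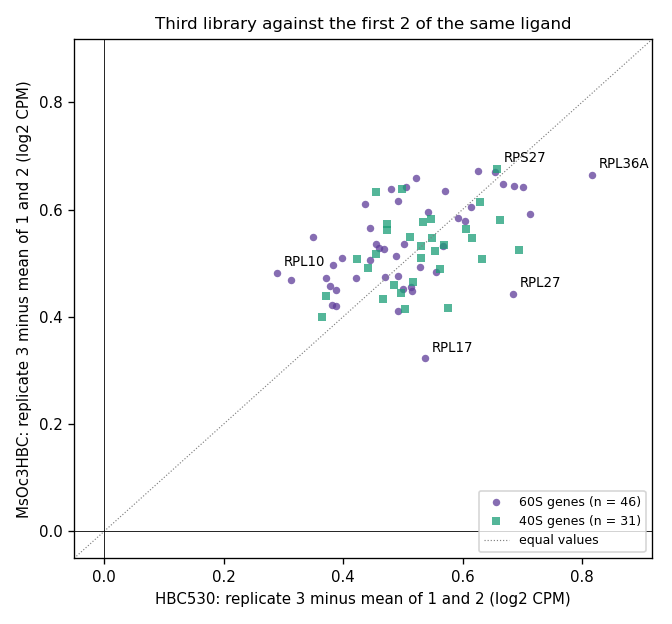
Each point is 1 ribosomal protein gene, placed by the log2 CPM of replicate 3 minus the mean of replicates 1 and 2, for HBC530 on the horizontal and MsOc3HBC on the vertical axis, with 60S genes as circles, 40S genes as squares and a dotted line of equal values. All 77 points lie above 0 on each axis, with medians of 0.51 and 0.53, and RPL36A (0.82) and RPS27 (0.68) are the highest on their axes.

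HBC530 was compared with DMSO to ask whether the non-covalent ligand changed these transcripts. All 77 genes had an estimate above 0 (51.1% of all 17684 genes tested did), but none was called changed at an adjusted p under 0.05 by the quasi-likelihood test of edgeR (Benjamini-Hochberg adjustment over all genes), where 0.017% of all genes were. At an unadjusted p under 0.05 there were 0 of 77, against 5.07% of all genes, and DESeq2 also called 0 of 77 (0.136% of all genes at an adjusted p under 0.05). The count at an unadjusted p under 0.05 was 5 without HBC530 replicate 1 (6.26% of all genes) and 12 without HBC530 replicate 2 (9.18%). The median log2 fold change was 0.17 (0.18 for 60S and 0.17 for 40S genes) against 0.00 for all genes, and the range was from 0.07 (RPS4X) to 0.28 (RPL13). RPL13, a 60S protein, was at 1849.8, 2129.8 and 2207 CPM in DMSO replicates 1 to 3 and at 2188, 2237 and 3062 with HBC530. Its groups overlapped, and the log2 fold change was 0.28 (95% interval -0.02 to 0.57, edgeR adjusted p = 0.751). RPS4X, the X-linked form of a 40S protein, was at 3004, 2898 and 3045 CPM with DMSO and at 2898, 2815 and 3679 with HBC530. Only replicate 3 of the ligand was outside the DMSO range on the high side, and the log2 fold change was 0.07 (-0.17 to 0.31, edgeR adjusted p = 0.856).

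The HBC530 libraries lay entirely above the DMSO libraries for 4 genes, RPL3, RPL4, RPL12 and RPL37A, where 7.23% of all genes did so, and entirely below for 0 (6.63%). RPL3, a protein near the peptidyl transferase centre, had 2611, 2683 and 2743 CPM with DMSO and 2788, 2807 and 3662 with HBC530. RPL4, RPL12 and RPL37A are named because their number is small, after their values were seen. Without HBC530 replicate 3 the median over the 77 genes was -0.02 with 25 above 0 (49.8% of all genes), so the direction of the estimates rested on that library. The 95% interval lay within -0.5 to 0.5 for 49 genes (59.7% of all genes) and within -1 to 1 for all 77, and the count of 49 ran from 11 without HBC530 replicate 1 to 77 without replicate 3. With trends in length and GC content removed the median was 0.10.

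MsOc3HBC was compared with DMSO to ask the same of the ligand with the reactive handle. Again all 77 estimates were above 0 (52.4% of all 17514 genes), and none had an adjusted p under 0.05 by edgeR with Benjamini-Hochberg adjustment (0.154% of all genes), nor by DESeq2 (0.862%). An unadjusted p under 0.05 was reached by 9 of the 77, against 10.9% of all genes, a share near the background with all 6 libraries. That count turned on single libraries, with 48 without MsOc3HBC replicate 2 (15.7% of all genes), 14 without MsOc3HBC replicate 1 (7.94%), 6 without MsOc3HBC replicate 3 (14.5%), and 2 without DMSO replicate 2 (5.1%) or DMSO replicate 3 (6.42%). With no filter on low counts 4 of the 77 were called (0.706% of all genes). The median was 0.23 (0.23 for 60S and 0.22 for 40S genes) against 0.01 for all genes, from 0.05 (RPSA) to 0.60 (RPL36A). RPL36A, a 60S protein encoded on the X chromosome, had 332, 252 and 259.6 CPM with DMSO and 376, 336 and 564 with MsOc3HBC. The groups did not overlap, although replicate 1 of DMSO came close to replicate 2 of the ligand, and the log2 fold change was 0.60 (SE 0.181, 95% interval 0.20 to 1.00, edgeR adjusted p = 0.304). RPL36A shares exons with the read-through gene RPL36A-HNRNPH2, which had 0.0375% of its count. That share does not show how many reads fitting both genes went uncounted.

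RPL11, which with RPL5 and the 5S RNA can bind MDM2, followed with 1080.1, 951 and 937 CPM with DMSO and 1205, 1114 and 1811 with MsOc3HBC. Its groups did not overlap either, with a log2 fold change of 0.48 (0.11 to 0.85, edgeR adjusted p = 0.358). RPL5, its partner, had 2263, 2229.5 and 2212 CPM with DMSO and 2209, 2117 and 2953 with MsOc3HBC, a difference of 0.12 (-0.17 to 0.41) in which 2 of the 3 ligand libraries were below every DMSO library. RPS27, a zinc-finger protein of the 40S subunit, had 546, 458 and 432 CPM with DMSO and 558, 535 and 873 with MsOc3HBC (0.46, interval 0.07 to 0.84, edgeR adjusted p = 0.404). Here replicate 2 of the ligand lay below replicate 1 of DMSO. RPS24, whose mutation causes Diamond-Blackfan anaemia, had 778, 671 and 669 CPM with DMSO and 826, 763 and 1216 with MsOc3HBC, again with overlap, and a log2 fold change of 0.41 (0.05 to 0.77). RPL41 was at 0.39 (0.03 to 0.75), RPL37 at 0.39 (0.07 to 0.70) and RPL22 at 0.33 (0.03 to 0.63), with edgeR adjusted p of these 4 genes from 0.383 to 0.428. Replicate 3 of MsOc3HBC set much of these values, since without it RPL11 was at 0.23, RPS27 at 0.19, RPS24 at 0.17, RPL41 at 0.14, RPL37 at 0.20, RPL22 at 0.16 and RPL5 at -0.05.

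The estimates of further members with known roles ran from 0.05 to 0.28, beside a median of 0.23 for the 77 genes. Those of the stalk, which recruits elongation factors, were at 0.08 (RPLP0), 0.21 (RPLP1) and 0.28 (RPLP2), each with an interval that held 0. RPS6, the substrate of S6 kinase, was at 0.23 (-0.11 to 0.56), RPS27A, made as a fusion with ubiquitin, at 0.19 (-0.13 to 0.50), and RPS3, at the mRNA entry channel, at 0.13 (-0.16 to 0.42). RPSA, a 40S protein also known as a laminin receptor, had 2045, 2235 and 2354 CPM with DMSO and 2071, 2003 and 2762 with MsOc3HBC, so replicates 1 and 2 of the ligand were at the low end of DMSO and replicate 3 above it. Its log2 fold change was 0.05 (-0.25 to 0.34). Without MsOc3HBC replicate 3 these estimates were near 0 or below it, at -0.09 for RPLP0, 0.02 for RPLP1, 0.05 for RPLP2, 0.00 for RPS6, -0.00 for RPS27A, -0.03 for RPS3 and -0.12 for RPSA.

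**Figure D4:**
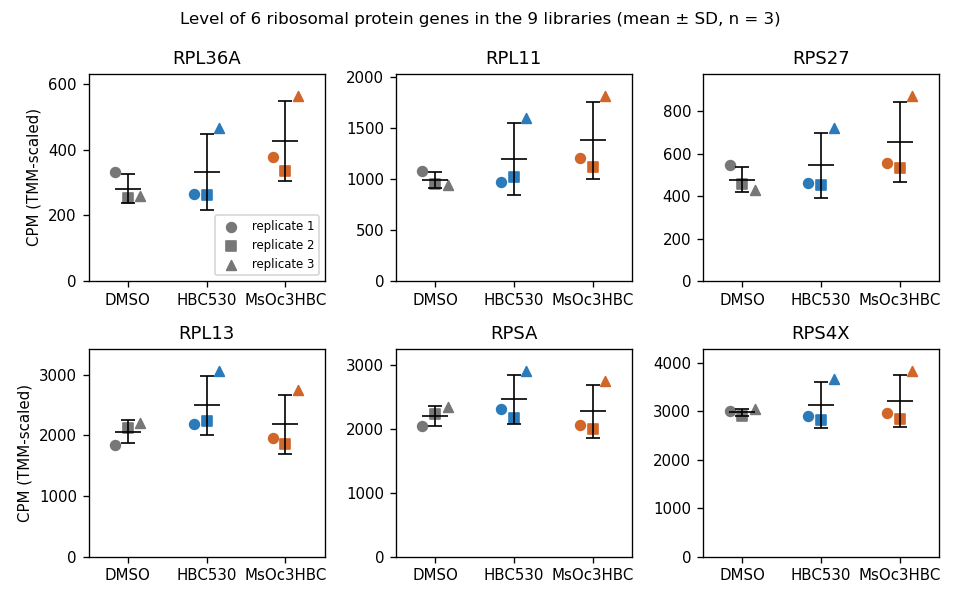
CPM after TMM scaling (vertical axis, from 0) of 6 ribosomal protein genes under DMSO, HBC530 and MsOc3HBC (horizontal axis), with circles, squares and triangles for replicates 1, 2 and 3 and black bars for the mean and SD of 3 libraries. Replicate 3 of each ligand is the highest value of its group in every panel, up to 564 CPM for RPL36A with MsOc3HBC, and for RPL36A replicates 1 and 2 of MsOc3HBC (376 and 336) are above those of HBC530 (266 and 263).

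The MsOc3HBC libraries lay entirely above the DMSO libraries for 7 genes (9.45% of all genes did), RPL3, RPL11, RPL13A, RPL22, RPL31 and RPL36A among them (RPL13A and RPL31 chosen after their values were seen), and entirely below for 0 (8.98%). Without MsOc3HBC replicate 3 the median was 0.02 with 51 of 77 above 0 (51.7% of all genes), and RPL36A was at 0.34. With the trends in length and GC content removed the median was 0.12, with RPL36A at 0.41. The 95% interval lay within -0.5 to 0.5 for 26 genes (55.9% of all genes) and within -1 to 1 for all 77, and the count of 26 ran from 5 without MsOc3HBC replicate 1 or 2 to 76 without replicate 3. The comparisons of the ligands with DMSO share the DMSO libraries, so that a low or high DMSO library moves them together.

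The 2 ligands, used at the same dose and for the same time, were 1 pair of compounds and were compared directly. Without regard to the replicate numbers, 0 of the 77 genes had an adjusted p under 0.05 by edgeR with Benjamini-Hochberg adjustment (0% of 17397 genes), 0 an unadjusted p under 0.05 (7.32% of all genes), and DESeq2 called 0 of the 77 (0.316% of all genes at an adjusted p under 0.05). Without HBC530 replicate 3, 6 had an unadjusted p under 0.05 (8.72% of all genes). The median difference, MsOc3HBC minus HBC530, was 0.05 with 61 genes above 0 (53.8% of all genes, whose median was 0.02), from -0.19 (RPL13) to 0.36 (RPL36A, 95% interval -0.26 to 0.98). The direction turned on single libraries, with a median of -0.14 and 5 genes above 0 without MsOc3HBC replicate 3 (52.2% of all genes) and of 0.24 and 76 above 0 without HBC530 replicate 3 (54.8%). No gene separated the groups (7.03% of all genes were entirely higher and 8.49% entirely lower). The interval lay within -0.5 to 0.5 for 29 genes (51% of all genes, and 2 to 26 of the 77 with 1 library left out) and within -1 to 1 for all 77, and a p that misses the threshold does not show that the ligands act alike.

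Replicates of the ligands with the same number correlated in their deviations from the treatment mean. HBC530 replicate 1, however, correlated more with MsOc3HBC replicate 2 (r = 0.34) than with replicate 1 (0.19). Since replicate 3 of both ligands stood apart from the others, such correlations cannot show that the numbers pair the libraries. The calls with a block rest on that assumption. With the replicate number as a block 13 of the 77 genes had an adjusted p under 0.05, 12 higher and 1 lower with MsOc3HBC. Of all genes 11.4% were called in this fit, 4.54% higher and 6.9% lower. RPL36A was higher by 0.38 (SE 0.0514, adjusted p = 0.00185 in the blocked edgeR fit), with 376 against 266 CPM in replicate 1, 336 against 263 in replicate 2 and 564 against 466 in replicate 3. It was higher in all 3 pairs, and over 22 alternative settings its adjusted p ran from 0.000773 to 1.00 with 3 under 0.05. RPS27 was higher by 0.26 (adjusted p = 0.00401 in the blocked edgeR fit), with 558 against 464, 535 against 453 and 873 against 723 CPM, again higher in each pair. RPS24 was higher by 0.25, RPL37 by 0.23, RPL22 by 0.21 and RPL11 by 0.21 (adjusted p from 0.00506 to 0.0161 in the blocked edgeR fit), and each was higher in all 3 pairs. Over the alternatives the adjusted p of these 5 genes reached 1.00, with 2 of 22 under 0.05 for each. RPL21, RPL26, RPL31, RPL34, RPL41 and RPS15A complete the 12, with differences from 0.15 to 0.22, and are named because they passed the test.

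RPL13 was the gene lower with MsOc3HBC in the blocked fit, at -0.19 (SE 0.0446, adjusted p = 0.0149 in the blocked edgeR fit, up to 1.00 over the alternatives), with 1951 against 2188, 1859 against 2237 and 2745 against 3062 CPM, lower in all 3 pairs. RPSA was at -0.12 and was not called. Fewer genes were called once trends in length and GC content were removed in the blocked fit, namely 2, RPL36A (0.24) and RPS15A (0.21), where 1.25% of all genes were called. Without replicate 3 of both ligands, 10 genes were called, 8 higher and 2 lower (9.16% of all genes), with RPL36A at 0.42 and RPL13 at -0.22.

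Taken pair by pair, the difference between the ligands was small beside the gap to replicate 3. MsOc3HBC was above HBC530 in 60, 46 and 54 of the 77 genes in pairs 1 to 3, with medians of 0.06, 0.01 and 0.06 on the log2 scale. RPL36A had the largest difference in every pair (0.50, 0.35 and 0.27), and the lowest were RPL13 in pair 2 (-0.27) and RPL27 in pair 3 (-0.18). The difference was above 0 in all 3 pairs for 34 genes and below 0 in all 3 for 8, against 22.8 and 22.6% of all genes. The pairs hold different libraries, and across the 77 genes their differences correlated with r = 0.85 between pairs 1 and 2 and 0.60 between their mean and pair 3. GC content of the transcript, which ran from 40.1 to 63.6% among the 77 genes, correlated with the difference at r = -0.42 in pairs 1 and 2 and -0.53 in pair 3. Among the vehicle libraries, GC content also correlated with the deviation of DMSO replicate 1 from the DMSO mean, at r = -0.51. In DMSO replicate 1 that deviation was 0.25 for RPL36A and -0.15 for RPL13, so such a pattern was not limited to the ligands. RPL36A has a GC content of 41.1% and RPL13 of 54.7%, and the part of GC content in their difference was not tested for each gene.

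**Figure D5:**
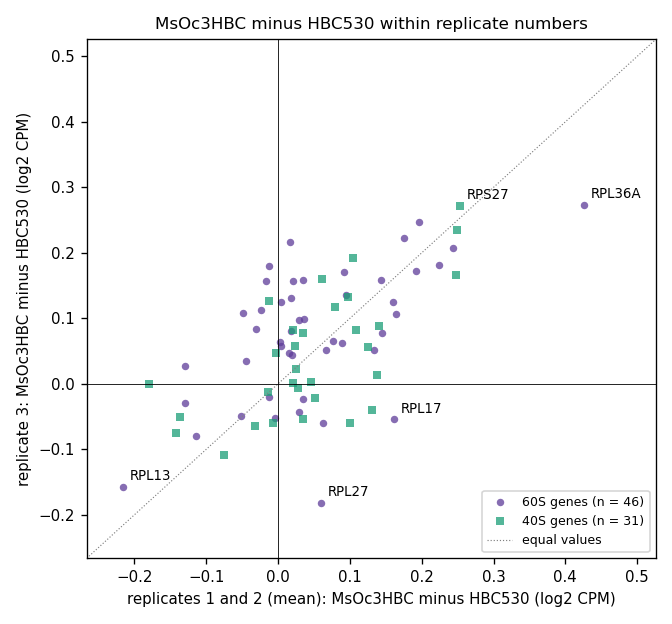
Each point is 1 ribosomal protein gene, placed by MsOc3HBC minus HBC530 in log2 CPM, as the mean of replicates 1 and 2 on the horizontal axis and for replicate 3 on the vertical axis, with 60S genes as circles, 40S genes as squares and a dotted line of equal values. RPL36A is farthest to the right and RPL13 farthest to the left, and across the 77 genes r is 0.60.

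Other genes of the translation machinery were counted by lists, and in the edgeR fits without a block and in DESeq2 none was called in any of the 3 comparisons (all-gene shares as above). FAU encodes a 40S protein as a fusion with a ubiquitin-like protein. It had 446, 418 and 414 CPM with DMSO, 424, 406 and 596 with HBC530 and 440.1, 416 and 642 with MsOc3HBC. Replicate 3 of each ligand was thus its highest library, as for the 77 genes. Of the 8 paralogs of ribosomal protein genes, 7 were tested, with medians of 0.40 and 0.46 in replicate 3. RPL36AL, the autosomal paralog of RPL36A, had 239.8, 210.4 and 204 CPM with DMSO and 227, 216 and 308 with MsOc3HBC, a log2 fold change of 0.21 (-0.10 to 0.51). RPL7L1 had 383, 366 and 357 CPM with DMSO, 366, 364 and 362 with HBC530 and 336, 349 and 359 with MsOc3HBC, and was thus not high in replicate 3. RPL10L had 1 count in all 9 libraries together.

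The 19 translation factors and other TOP transcripts had lower medians in replicate 3 (0.20 with HBC530 and 0.36 with MsOc3HBC), and EEF1A1, the elongation factor that delivers tRNA, was at 0.06 against DMSO with HBC530 (-0.13 to 0.24) and at 0.05 with MsOc3HBC (-0.20 to 0.30). The 78 proteins of the mitochondrial ribosome, whose transcripts are short too, were at 0.32 and 0.31 in replicate 3, and 38 ribosome biogenesis genes at 0.12 and 0.10. The 10 regulators of TOP translation were lower in these libraries, at -0.29 and -0.25. Other genes of 4000 bases or more were at -0.26 and -0.20 there, and the part of length in the values of these lists was not tested. Against DMSO the medians of these 4 lists were 0.06, 0.08, 0.03 and -0.08 for HBC530 and 0.12, 0.07, -0.03 and -0.06 for MsOc3HBC, with 0 genes called in each. In the blocked fit between the ligands, where 11.4% of all genes were called, the calls were 9 of 78 mitochondrial ribosomal proteins, all lower with MsOc3HBC, 9 of 38 biogenesis genes (8 lower), 4 of 19 translation factors and TOP transcripts, and 3 of 10 regulators. The 4 were BTF3 (0.18), EIF4B (0.19) and HNRNPA1 (0.19), higher, and the elongation factor EEF2 (-0.15), lower. The 3 regulators were the S6 kinase RPS6KB1 (0.23), higher, and the mTOR complex subunit RPTOR (-0.26) and its upstream inhibitor TSC2 (-0.28), lower. With trends in length and GC content also removed, the blocked fit called 1.25% of all genes, and calls in these lists were not counted there. EIF4EBP1, the translation repressor 4E-BP1 and singled out after its values were seen, went against its list with 192, 204 and 231 CPM with DMSO, 233, 256 and 367 with HBC530 and 245, 233 and 361 with MsOc3HBC. Its log2 fold changes were 0.45 (0.11 to 0.80, edgeR adjusted p = 0.751) and 0.43 (0.08 to 0.77, edgeR adjusted p = 0.384).

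Outside the 77 genes, the transcripts whose log2 CPM over the 9 libraries was most like the mean of the members were UQCRQ (r = 0.998), COX7A2 (0.997) and FAU (0.996). UQCRQ and COX7A2 encode small subunits of respiratory complexes III and IV. COX7A2 had 109.8, 109 and 109 CPM with DMSO, 109, 108 and 163 with HBC530 and 117, 110.1 and 171 with MsOc3HBC. The correlations rest largely on replicate 3 of the ligands, which were the highest libraries for each of these genes.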

How the data were processed

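The deposited count files hold raw counts per gene that the authors made by trimming paired-end reads of poly(A) RNA with Trimmomatic 0.36, aligning them to GRCh38 with STAR 2.5.2b and counting unique gene hits with featureCounts of Subread 1.5.2 (submitters' processing notes and the study's methods). The annotation release and strand setting are not given in the sources used here. The signal columns of the 2 deposited tables are counts that the authors divided by DESeq2 size factors; only the gene names of these tables were used, and their fold changes and p-values were not.

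Groups of 3 libraries were compared on raw counts with edgeR 4.0.16 under R 4.3.3 (filterByExpr, TMM, quasi-likelihood F test, Benjamini-Hochberg over all genes tested). Standard errors and 95% intervals come from that fit. CPM are TMM-scaled, and log2 CPM use a prior count of 1. Length and GC content are those of the Ensembl canonical transcript in GENCODE on GRCh38, found for all 77 genes, and trends were removed in every library by a spline of 5 degrees of freedom. Simulated data with 200 changed genes were used to test the fits. Alternatives used DESeq2 1.42.0, limma-voom 3.58.1, other scalings and filters, the replicate block and each library left out. Trends with the count files' own gene length, the fit of 7 libraries and coding length were chosen after seeing the data.

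The members, lists and tests were chosen with earlier results of these data known. A few results for single genes are not reported here. Genes were named by rule (the 4 highest and 4 lowest estimates per comparison, the 3 highest and 3 lowest levels per kilobase, and members of known function). Replicate numbers are those of the labels. Deviations from the treatment mean correlated between same-numbered HBC530 and MsOc3HBC libraries with r = 0.19, 0.42 and 0.48, all over 0.1, and for that reason the numbers were used as a block. Replicate 3 of both ligands shared low depth and the trend with length, and deviations from a mean of 3 libraries depend on each other. Replicates 1 and 2 can thus correlate across ligands without being paired, so these values cannot show a pairing. The pairing of replicates 1 and 2 is not clear-cut, since HBC530 replicate 1 correlated more with MsOc3HBC replicate 2 (r = 0.34) than with replicate 1. The p-values measure the spread between these cultures. Depth was 28056929 to 62205366 counts per library; the lowest mean count of a member was 6130.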

Additional observations from a re-analysis of the deposited data

How the results depend on the processing

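Over the 22 alternative settings of each comparison, no named gene changed direction while called, and of 2046 values 1839 moved by less than their SE, 183 by more, and 24 became called. The number of the 77 genes called stayed at 0 for HBC530 against DMSO. For MsOc3HBC against DMSO it was 4 with no filter on low counts (RPL11, RPL36A, RPS24 and RPS27; 0.706% of all genes) and otherwise 0 outside the block. For MsOc3HBC against HBC530 it was 10 without replicate 3 of both ligands and 0 with each single library left out. With 1 library left out, the median log2 fold change ran from -0.02 (without HBC530 replicate 3) to 0.27 for HBC530, from 0.02 (without MsOc3HBC replicate 3) to 0.33 for MsOc3HBC, and from -0.14 (without MsOc3HBC replicate 3) to 0.24 (without HBC530 replicate 3) between the ligands. The other settings gave medians above 0, except -0.03 for HBC530 in the fit of 7 libraries. The share of counts on ribosomal protein genes, DMSO, was 9.92% with mitochondrial genome counts left out. The causes were not tested.

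With the replicate number as a block, 13 of the 77 genes were called between the ligands, and 2 with the trends in length and GC content removed as well. Between each ligand and DMSO the same-numbered libraries did not all correlate over 0.1 (r = 0.09, 0.02 and 0.18 for HBC530 and -0.11, 0.01 and 0.05 for MsOc3HBC), and not every library correlated best with its own number. The block there called 0 genes for HBC530 and 1 for MsOc3HBC (RPL36A, 0.57, adjusted p = 0.0158 by edgeR, and 9.99e-05 to 0.952 over the alternatives; 0.851% of all genes were called), and it changed no other call.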
